A study of Mus musculus with 5 samples.

Results

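Lysosomal genes were followed in RNA sequencing of mouse microglia labelled as lacking Ythdf2. They are 49 of the 21983 genes in the count table and were chosen by symbol: 24 genes for luminal hydrolases and their helper proteins, 7 for membrane and sterol-handling proteins, 3 for transcription factors, and 15 for the vacuolar proton pump and its accessory proteins. Of the 49, 48 passed the filter on low counts. The remaining one, Atp6v1c1, a subunit gene of the pump, was listed with 1 read in control 2 and at 0 in the other 4 libraries.

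RNA came from primary microglia of mouse brain, in 5 libraries. The 2 libraries labelled knockout carry the genotype Cx3cr1CreERT2 Ythdf2fl/fl, and the 3 controls carry Ythdf2fl/fl, so floxed Ythdf2 alleles are present in every library and the Cre allele in the first group alone. CreERT2 is a recombinase that acts only after tamoxifen, and Cx3cr1 is a locus used by microglia and by other macrophages and monocytes. The labels give no tamoxifen treatment, no age and no word on whether libraries come from separate animals or cultures. The p-values therefore cover the spread among these libraries alone, which may be technical.

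Lysosomes are the acidic organelles in which engulfed and worn-out material is broken down. The vacuolar ATPase (V-ATPase) acidifies them: its cytosolic V1 sector hydrolyses ATP and turns a ring in the membrane-bound V0 sector that carries protons inward. Acid hydrolases then degrade glycans, lipids, proteins and nucleic acids, and several of these genes are mutated in lysosomal storage diseases. Microglia, the phagocytes of the brain, depend on this system to clear myelin, dead cells and protein aggregates. The related transcription factors TFEB, TFE3 and MITF bind an E-box in the promoters of many lysosomal genes, known as the CLEAR element, and are controlled largely through their entry into the nucleus. Ythdf2 encodes a reader of N6-methyladenosine that sends marked mRNAs to decay.

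Gene counts summed to 13947500 to 19577217 per library, and no pair of libraries looked like a repeat of one: chi-square over degrees of freedom was 53.4 to 273 between pairs. Expression is given as CPM, read counts scaled to a common library size with the TMM factors of edgeR. Ythdf2 itself was not lower under the knockout label, with 103 and 127 CPM, beside control levels of 57.0, 69.2 and 68.8 CPM (edgeR quasi-likelihood adjusted p = 0.431). Levels are given throughout in this order, labelled knockout 1 and 2 and then controls 1 to 3. A count over the whole gene does not check the deletion of one part of it, and the libraries are called labelled knockout throughout. Microglia and macrophage markers were abundant, with Csf1r at 2372 to 4220 CPM and C1qa at 570 to 2509 CPM, while Trem2, a microglial receptor gene, was listed at 0 in all 5 libraries.

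No lysosomal gene passed a test between the libraries labelled knockout and the controls. The edgeR quasi-likelihood test called 0 of 48 genes at an adjusted p under 0.05, where it called 0% of the 12543 genes tested. At an unadjusted p under 0.05 it found 0 higher and 0 lower lysosomal genes, against 3.99% of all genes higher and 2.69% lower. DESeq2 called 0 of the 48 (1.21% of all genes higher and 0.734% lower) and limma-voom 0 (0% of all genes). The smallest adjusted p of a lysosomal gene was 0.826 in edgeR, 0.648 in DESeq2 and 0.92 in limma-voom. A p that misses the threshold does not show that the genes are equal: the standard errors of the log2 fold changes ran from 0.192 to 1.14, with a median of 0.318.

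The fold changes were small in both directions. Of the log2 fold changes, 18 were above 0 and 30 below, with a median of -0.07, beside a median of 0.01 and a positive share of 51.1% over all genes tested. The value lay between -0.25 and 0.25 for 27 of the 48, and exceeded 1 in size for 1, Atp6v0d2. Over all 12543 genes tested it lay between -0.25 and 0.25 for 5741 and exceeded 1 in size for 1476. Neither library labelled knockout overlapped the controls for 2 lysosomal genes that were higher, Arsa and Smpd1, and 2 that were lower, Acp2 and Atp6v1h. These 4 genes were singled out after their values were seen. Of all genes tested, 9.85% were higher and 10.4% lower without overlap.

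**Figure D1:**
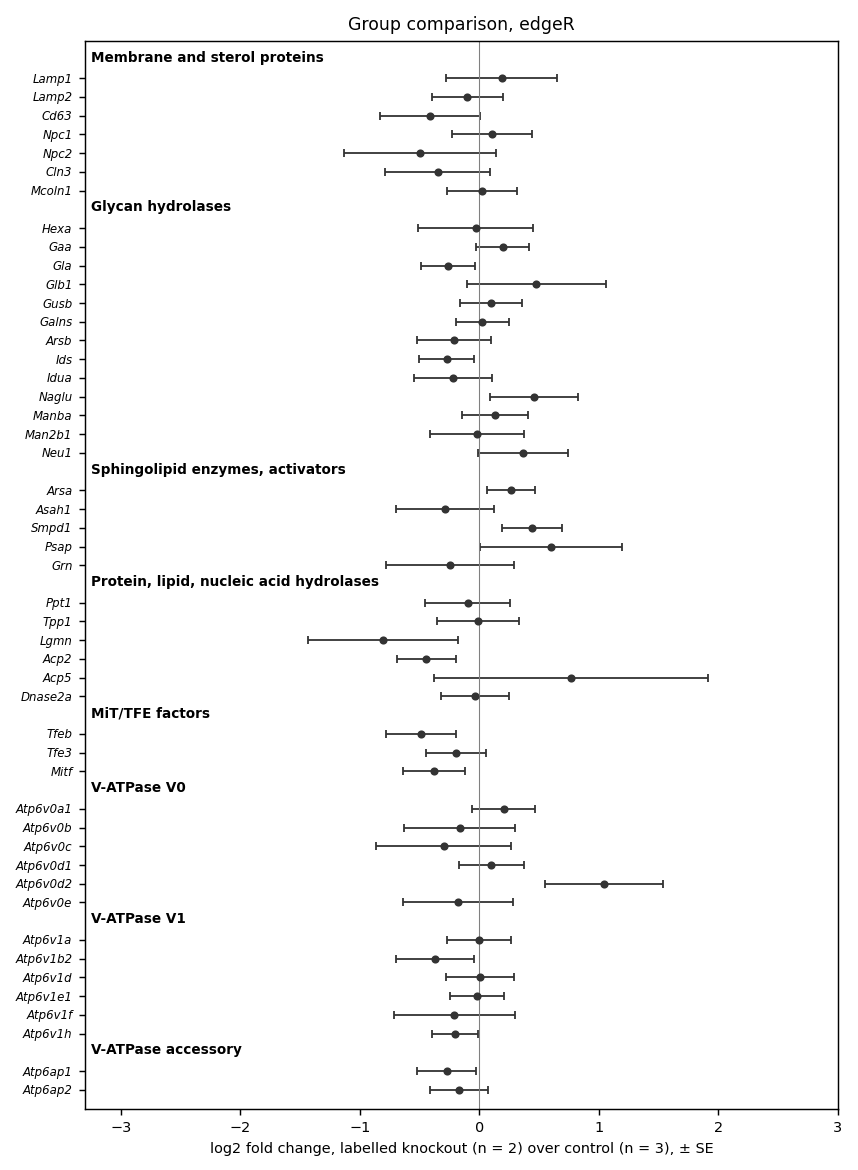
Log2 fold change of the 48 lysosomal genes, labelled knockout (n = 2) over control (n = 3), with bars of 1 standard error from the edgeR fit, ordered by role. Most points lie close to 0, Atp6v0d2 is farthest from it at 1.04, and the widest bar is that of Acp5.

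The 2 libraries labelled knockout were far apart from each other. In labelled knockout 1 lysosomal genes were low: it lay below every control for 33 of the 48 genes (37% of all genes tested) and above every control for 3 (34.5%). In labelled knockout 2 they were high: it lay above every control for 25 (26.8% of all genes) and below for 4 (23.5%). For 16 of the 48 both held at once, against 10.1% of all genes: Lamp1, Mcoln1, Hexa, Gusb, Idua, Naglu, Man2b1, Psap, Tpp1, Dnase2a, Atp6v0b, Atp6v0d1, Atp6v0e, Atp6v1d, Atp6v1e1 and Atp6v1f. Both libraries were set against the same 3 controls. With 1 library on each side, these positions describe libraries and have no replicate check.

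Set directly against each other, labelled knockout 2 exceeded labelled knockout 1 for 43 of the 48 genes (51.3% of all genes tested). The 5 exceptions were Atp6v1h, Smpd1, Ids, Npc1 and Arsb, the last with a level 1.86-fold higher in labelled knockout 1. The median log2 ratio of labelled knockout 2 over 1 was 0.78 over the lysosomal genes and 0.03 over all genes tested. More than 2-fold higher were 19 of the 48 (14.2% of all genes) and more than 2-fold lower 0 (16.5%). Between controls the medians over the same genes were smaller, at -0.03 for control 2 over 1, 0.19 for control 3 over 1 and 0.17 for control 3 over 2. Controls 1, 2 and 3 over labelled knockout 1 gave medians of 0.44, 0.33 and 0.60. Over labelled knockout 2 they gave -0.31, -0.40 and -0.15, so control 3 lay about as near to labelled knockout 2 as to the other controls. Control 3 exceeded labelled knockout 2 for 18 of the 48 genes (47.9% of all genes tested). The 49 genes together took 1.87% of all reads in labelled knockout 1, 2.36% in control 2, 2.73% in control 1, 3.09% in control 3 and 3.9% in labelled knockout 2. Without Psap, which alone took 1.6% of reads in labelled knockout 2 and 0.665% in control 3, control 3 was highest at 2.42% and labelled knockout 2 next at 2.3%, with labelled knockout 1 still lowest at 1.38%. In bulk RNA, fewer cells of a type and less RNA per cell cannot be told apart.

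The group value therefore turned with the library left out. Without labelled knockout 1 the log2 fold change was positive in 36 of the 48 genes, with a median of 0.24, and 4 genes were higher and 1 lower at an unadjusted p under 0.05 in edgeR (4.23% of all genes higher and 2.52% lower in that fit). Without labelled knockout 2 it was negative in 42 of the 48, with a median of -0.52, and 11 genes were lower and 0 higher, in a fit where 7.9% of all genes were lower and 8.84% higher. With 1 library labelled knockout left in each case, the sign and median describe that library against the controls. With control 1, 2 or 3 left out instead, 0 lysosomal genes were higher and 0 lower at that unadjusted p, where 2.08%, 2.49% and 4.26% of all genes were higher and 1.21%, 1.54% and 2.47% lower. The median over hydrolases and activators, -0.02, also turned to 0.12 without control 3. In these fits the lone library is assumed to vary like the controls.

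**Figure D2:**
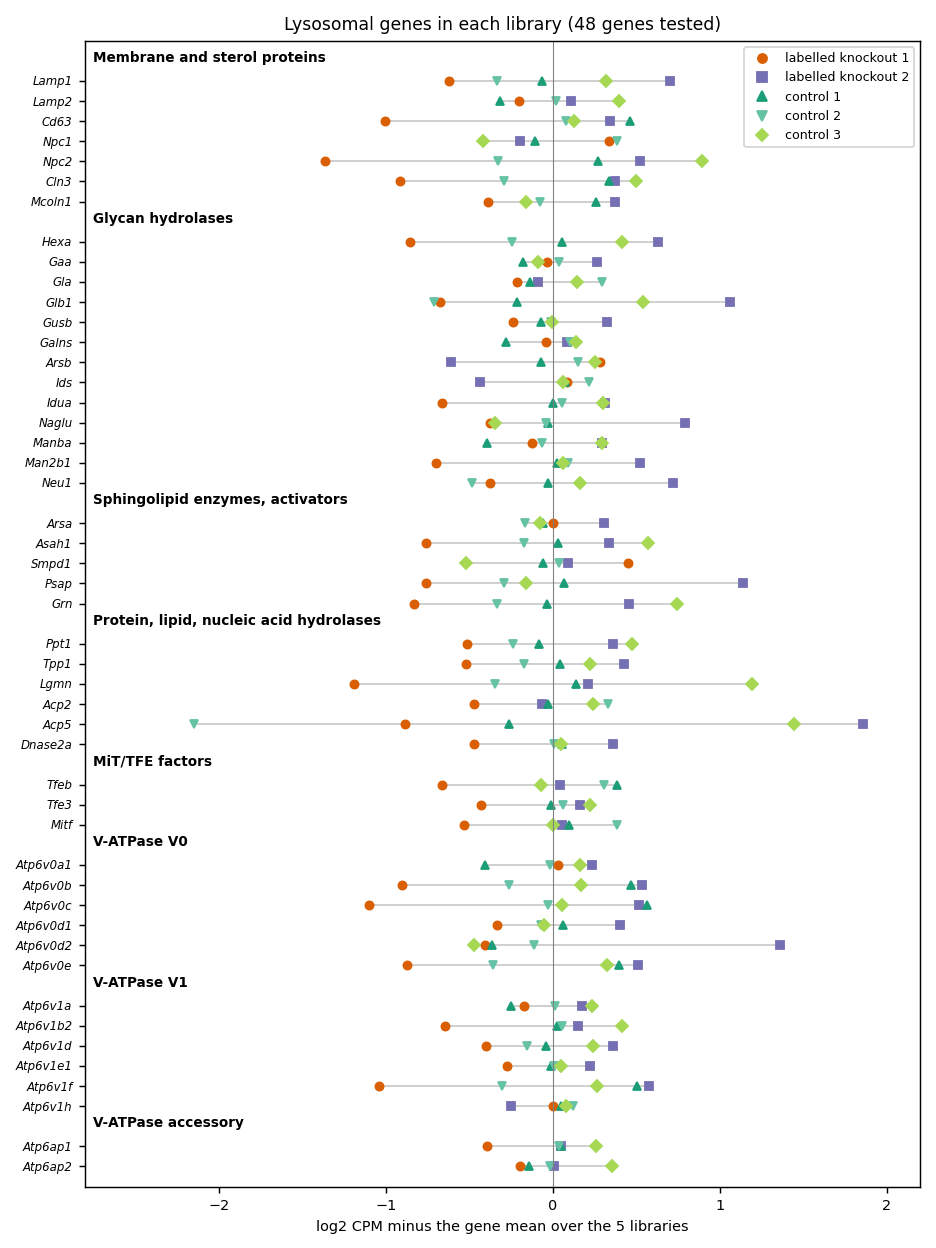
Log2 CPM of each lysosomal gene in each library minus its mean over the 5 libraries, grouped by role; the grey line spans the 5 libraries. Labelled knockout 1 (orange circles) is the lowest library for 32 of the 48 genes and labelled knockout 2 (purple squares) the highest for 24.

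Gene positions below are those of GENCODE M21 on GRCm38, the assembly also called mm10. Exons of 16 of the 48 genes overlap exons of another gene, for 12 of them one that is in the count table, and reads there may have been left out or shared; Lamp1, Hexa, Npc1, Cln3, Grn and Glb1 are among these.

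Among membrane and sterol-handling proteins, Lamp1 (chr8:13159161-13175338, plus strand), a heavily glycosylated protein of the lysosomal membrane, stood at 1244 and 3117 CPM in labelled knockout 1 and 2 and at 1829, 1519 and 2392 CPM in controls 1 to 3. The 3 controls lay between the libraries labelled knockout, whose mean was 2181 ± 1325 (SD, n = 2) against 1913 ± 443 (SD, n = 3). The log2 fold change of Lamp1 was 0.19 (SE 0.464). Npc2 (chr12:84754562-84773152, minus strand), the soluble protein that hands cholesterol to the membrane protein NPC1, was at 346 and 1280.1 CPM, beside control levels of 1076, 709.8 and 1654 CPM. Labelled knockout 1 was the lowest library for Npc2 and control 3 the highest, and the log2 fold change of -0.50 was smaller than its SE of 0.634. The other members of this role were Lamp2, Cd63, Npc1, the calcium channel gene Mcoln1 and the Batten disease gene Cln3. Over all 7 the log2 fold changes ran from -0.50 to 0.19, and labelled knockout 2 was at 0.691 to 3.7 times the level of labelled knockout 1. The lowest of these ratios belonged to Npc1.

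The 13 hydrolases of glycans and glycosaminoglycans had log2 fold changes of -0.27 to 0.48. Hexa, the alpha subunit of beta-hexosaminidase, was at 483 and 1350.2 CPM, beside control levels of 908, 737 and 1165 CPM, a log2 fold change of -0.03 (SE 0.481). Man2b1, the lysosomal alpha-mannosidase, was at 546 and 1277 CPM, beside control levels of 904, 947 and 925 CPM. The controls agreed closely for Man2b1, at 925 ± 21.6 (SD, n = 3), while the libraries labelled knockout gave 911 ± 517 (SD, n = 2). Glb1, the beta-galactosidase whose activity is stained to find senescent cells, was at 87.4 and 291 CPM, beside control levels of 120.1, 85.4 and 203 CPM. Labelled knockout 2 was the highest library for Glb1, and labelled knockout 1 overlapped the controls (log2 fold change 0.48, SE 0.583). Arsb and Ids, a sulfatase pair that trims glycosaminoglycans, went the other way, with labelled knockout 2 below labelled knockout 1 and below every control.

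Psap (chr10:60277627-60302597, plus strand) encodes prosaposin, which is cut into the activator proteins that present sphingolipids to their hydrolases, and it was the most abundant lysosomal transcript both as CPM and per transcript length. Its level was 4554 CPM in labelled knockout 1, 16955 CPM in labelled knockout 2, and 8081, 6296 and 6899 CPM in controls 1 to 3. Labelled knockout 2 thus held 3.72 times the level of labelled knockout 1, with the controls close together between them (7092 ± 908, SD, n = 3; log2 fold change 0.60, SE 0.592). Grn (chr11:102430315-102437048, plus strand), the progranulin gene, whose product reaches lysosomes with prosaposin, was at 1709.6 and 4180.1 CPM, beside control levels of 2965, 2413 and 5095 CPM. For Grn the highest library was control 3, and the log2 fold change was -0.25 (SE 0.535). Per kilobase of transcript the mean levels were 3224 RPKM for Psap and 1399 RPKM for Grn, followed by Lamp1 at 906 RPKM and Lgmn at 725 RPKM. At the other end stood Arsa at 14.8 RPKM, Atp6v0c at 5.86 RPKM and Acp5 at 3.47 RPKM.

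The pair of sphingolipid enzymes that separated the groups did so by small amounts. Arsa, the arylsulfatase that acts on the myelin lipid sulfatide, was at 51.5 and 63.6 CPM, beside control levels of 49.3, 45.7 and 48.6 CPM, a log2 fold change of 0.26 (SE 0.199, edgeR adjusted p = 0.915). Smpd1, acid sphingomyelinase, was at 83.5 and 64.9 CPM, beside control levels of 58.5, 62.7 and 42.6 CPM, a log2 fold change of 0.44 (SE 0.252, edgeR adjusted p = 0.874). In both genes the lower of the libraries labelled knockout lay just above the highest control.

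Lgmn (chr12:102394084-102439813, minus strand), the asparaginyl endopeptidase legumain, varied widely within both groups. It was at 526 and 1388.5 CPM, beside control levels of 1324, 945 and 2751 CPM. Labelled knockout 1 was lowest and control 3 highest for Lgmn, and it had a log2 fold change of -0.81 (SE 0.626). Acp2, a lysosomal acid phosphatase, was at 207 and 275 CPM, beside control levels of 282, 361 and 340.1 CPM, below every control in both libraries (log2 fold change -0.44, SE 0.244, edgeR adjusted p = 0.874). Its exons overlap those of Ddb2, and the strand setting of the counting is not known from the sources used here. Acp5, the tartrate-resistant phosphatase typical of osteoclasts, was the least expressed member tested, at 1.55 and 11.0 CPM, beside control levels of 2.45, 0.57 and 8.25 CPM. Labelled knockout 2 and control 3 were the high libraries for Acp5, and the groups overlapped (log2 fold change 0.77, SE 1.14). The other members of this role, Ppt1, Tpp1 and Dnase2a, had log2 fold changes of -0.10, -0.01 and -0.04.

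**Figure D3:**
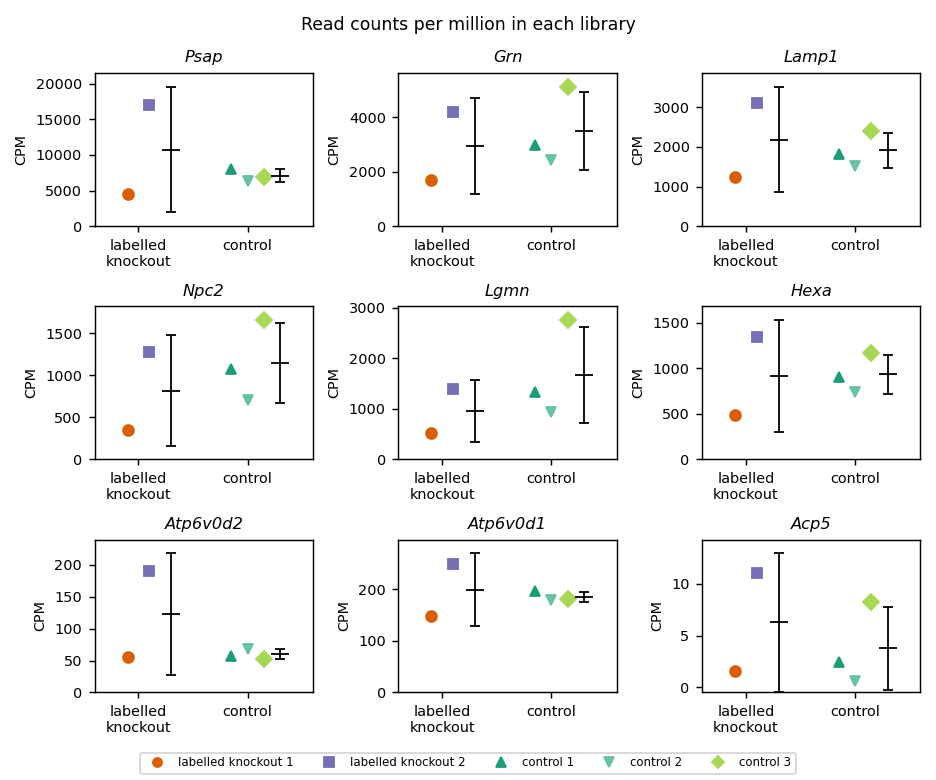
CPM of 9 lysosomal genes in each library, with the mean and SD of each group (labelled knockout n = 2, control n = 3) drawn to the right of its points. In all 9 panels labelled knockout 1 lies below labelled knockout 2, and in Atp6v0d2 the controls lie between 53.2 and 68.6 CPM beside labelled knockout 1.

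V-ATPase genes followed the same order of libraries. Of the log2 fold changes of the 14 tested, 4 were above 0 and 10 below, with a median of -0.17. Labelled knockout 1 was the lowest library for 10 of them and labelled knockout 2 the highest for 8. Atp6v0d2 (chr4:19876841-19922605, minus strand) had the largest fold change of the 48 genes. It encodes the macrophage and osteoclast form of the d subunit that links the V0 ring to the V1 stalk, and stood at 55.7 and 190.1 CPM, beside control levels of 57.4, 68.6 and 53.2 CPM. The log2 fold change of 1.04 (SE 0.492, edgeR adjusted p = 0.826) came from labelled knockout 2 alone, and was -0.10 without it and 1.64 without labelled knockout 1. Its ubiquitous paralog Atp6v0d1 (chr8:105524465-105566047, minus strand) was at 149 and 248 CPM, beside control levels of 196, 179 and 181 CPM, so that labelled knockout 2 was highest for both d subunits. Per kilobase, Atp6v0d1 was above Atp6v0d2 in every library, at 152 against 74.9 RPKM in labelled knockout 2 and at 91.2 to 120.2 against 20.96 to 27.0 RPKM in the other 4.

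Among the proteolipids of the V0 ring, Atp6v0b was at 132 and 358 CPM, beside control levels of 341, 206 and 278 CPM. Atp6v0c, which encodes the main ring subunit, was counted at only 2.44 and 7.73 CPM, beside control levels of 7.98, 5.26 and 5.57 CPM. GENCODE annotates pseudogene copies of Atp6v0c, so its count is uncertain, as is that of Cd63 for the same reason. In the V1 sector, Atp6v1a, the catalytic subunit, had nearly the same mean in both groups: 621 and 788 CPM, beside control levels of 588, 707 and 825 CPM, or 705 ± 118 (SD, n = 2) and 707 ± 118 (SD, n = 3). Atp6v1f, a small subunit of the rotor stalk, was at 44.1 and 136 CPM, beside control levels of 129, 73.6 and 109 CPM. Atp6v1h, a regulatory subunit, was at 121 and 102 CPM, beside control levels of 125, 132 and 128 CPM, the one V-ATPase gene below every control in both libraries (log2 fold change -0.20, SE 0.192, edgeR adjusted p = 0.924). The accessory genes Atp6ap1 and Atp6ap2, needed for assembly of the pump, had log2 fold changes of -0.27 and -0.17.

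The 3 transcription factor genes were lowest in labelled knockout 1, while labelled knockout 2 lay within the range of the controls for each. Tfeb was at 30.6 and 50.04 CPM, beside control levels of 63.4, 59.9 and 46.2 CPM, a log2 fold change of -0.49 (SE 0.293). Tfe3 was at 132 and 199 CPM, beside control levels of 176, 185 and 208 CPM, a log2 fold change of -0.20 (SE 0.25). Mitf was at 66.1 and 99.0 CPM, beside control levels of 102, 124 and 95.6 CPM, a log2 fold change of -0.38 (SE 0.259). Labelled knockout 2, which held the highest levels of many hydrolase and pump genes, was not above every control for any of these 3 genes. Their RNA levels do not measure entry of the factors into the nucleus.

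The promoters of the lysosomal genes were searched for the E-box of these factors. The RefSeq table (GRCm38.p6) gave 300 bases per start site, 250 before and 50 after it, for 42 of the 49 genes. The hexamer CACGTG, which reads the same on both strands, was found for 13 of the 42 (31%), against 11.7% of the 9872 tested genes with a promoter in the table and 7.15% of all 32851 promoters. The octamer GTCACGTG, on either strand and always holding the hexamer, was found for 10 (23.8%), against 4.8% of tested genes and 2.25% of all promoters. Copies of the octamer on both strands that overlap in a palindrome were found for Cln3 only among the 42, and in 0.326% of all promoters. A match is a description of letters and not a measured site.

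The 140 bases before the start site are shown for the 6 octamer-bearing genes in which labelled knockout 2 was more than 2-fold above labelled knockout 1, so that the letters can be set beside the values, with Arsa as one that bears the octamer and was less than 2-fold apart. Each is written 5′ to 3′ on the gene's own strand, with the octamer in capitals.
Lamp1, chr8:13159021-13159160, plus strand: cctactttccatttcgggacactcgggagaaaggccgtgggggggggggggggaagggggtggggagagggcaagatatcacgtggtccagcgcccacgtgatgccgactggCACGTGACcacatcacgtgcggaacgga
Atp6v0b, chr4:117887330-117887469, minus strand: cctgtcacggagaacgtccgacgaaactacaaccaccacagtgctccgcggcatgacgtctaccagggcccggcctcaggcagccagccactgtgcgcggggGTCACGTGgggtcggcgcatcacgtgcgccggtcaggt
Glb1, chr9:114400938-114401077, plus strand: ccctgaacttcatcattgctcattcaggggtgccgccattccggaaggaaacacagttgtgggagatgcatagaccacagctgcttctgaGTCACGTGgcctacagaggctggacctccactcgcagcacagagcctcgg
Naglu, chr11:101069954-101070093, plus strand: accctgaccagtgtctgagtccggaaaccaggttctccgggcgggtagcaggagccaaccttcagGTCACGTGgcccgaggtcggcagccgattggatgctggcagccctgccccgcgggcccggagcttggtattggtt
Lgmn, chr12:102439093-102439232, minus strand: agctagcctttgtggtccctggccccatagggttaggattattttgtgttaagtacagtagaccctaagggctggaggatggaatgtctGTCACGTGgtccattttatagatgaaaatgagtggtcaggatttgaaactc
Cln3, chr7:126583237-126583376, minus strand: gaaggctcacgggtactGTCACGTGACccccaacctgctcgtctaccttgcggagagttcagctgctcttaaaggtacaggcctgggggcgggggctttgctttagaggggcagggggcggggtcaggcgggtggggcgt
Arsa, chr15:89477425-89477564, minus strand: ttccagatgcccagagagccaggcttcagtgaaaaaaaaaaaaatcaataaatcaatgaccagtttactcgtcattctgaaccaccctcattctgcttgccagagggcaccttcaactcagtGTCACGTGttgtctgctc
The octamer begins 28 bases before the start in Lamp1, 38 in Atp6v0b, 50 in Glb1 and 75 in Naglu. In Lgmn it begins 51 bases before one of its start sites in the table. The bases shortly after that site were not found in any GENCODE M21 transcript of Lgmn. In Cln3 the first copy begins 123 bases before a start site that lies inside the annotated gene (chr7:126571207-126585817). In Arsa it begins 18 bases before the start. The Lamp1 stretch holds the hexamer 4 times. The remaining octamer-bearing genes were Mcoln1, which has 2 copies, Atp6v0d1 and Gla. The median log2 ratio of labelled knockout 2 over 1 was 1.23 over the 10 genes with the octamer and 0.73 over the 32 without it, a description of 2 libraries with no test. More than 2-fold higher in labelled knockout 2 were 6 of the 10 and 11 of the 32. The part of these factors in the order of libraries was not tested. Arsa and Gla, with log2 ratios of 0.30 and 0.12, lay at the low end of those with the octamer, and Psap and Npc2, among the widest ratios of all, have no octamer in this window.

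The difference between the libraries labelled knockout also varied with transcript length, across genes in general. Across the 12510 genes tested that had a length, the Spearman correlation of length with the log2 ratio of labelled knockout 2 over 1 was -0.47, and across the 48 lysosomal genes it was -0.43. Both are descriptions of the same 2 libraries. For the 16 lysosomal genes with the shortest transcripts the median log2 ratio was 1.11, beside 0.50 for all genes of that length range. For the next 16 it was 1.096 beside 0.11, and for the 16 longest 0.38 beside -0.33. The lysosomal median was above that of all genes in each of these length ranges. The part of transcript length in the lysosomal difference was not tested. After a correction of each library for its own length trend, chosen after the data were seen, the median ratio over the lysosomal genes was 0.68, beside 0.08 over all genes, and 17 of the 48 were more than 2-fold higher (11.3% of all genes).

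**Figure D4:**
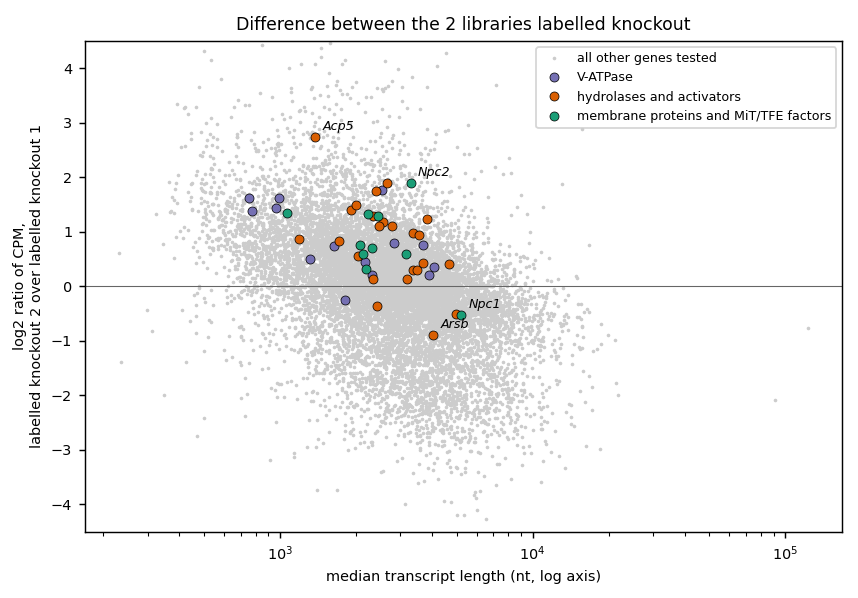
Log2 ratio of CPM, labelled knockout 2 over labelled knockout 1, against median transcript length on a log axis, for all genes tested (grey) and the lysosomal genes (coloured by role); values beyond 4.5 in size are not drawn. Short transcripts tend to lie above 0 and long ones below, and 43 of the 48 lysosomal genes lie above 0 (51.3% of all genes tested).

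Lists of further lysosomal genes, outside the 49, held no gene called by edgeR and a few larger single differences. Their median log2 fold changes ran from -0.05 to 0.10. Of 35 other hydrolase and luminal genes tested, edgeR called 0 at an adjusted p under 0.05, with 2 higher and 1 lower at an unadjusted p under 0.05. At that unadjusted p 3.99% of all genes tested were higher and 2.69% lower. Sgsh and Hgsnat, a pair of enzymes of heparan sulfate breakdown, had log2 fold changes of 0.91 and 0.65, each above every control in both libraries. In this list 2 genes were higher and 3 lower without overlap, where 9.85% of all genes were higher and 10.4% lower.

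Of 38 other membrane genes tested, edgeR called 0, with 4 higher and 1 lower at an unadjusted p under 0.05. The shares of all genes were 3.99% higher and 2.69% lower. Slc37a2, a sugar phosphate transporter gene of macrophages, was at 294 and 285 CPM, beside control levels of 488, 661 and 677 CPM, which gives -1.07 on the log2 scale (SE 0.257; adjusted p = 0.398 in edgeR and 0.0153 in DESeq2). Sidt2 and Slc36a1, a nucleic acid transporter and an amino acid transporter of lysosomes, had log2 fold changes of 1.05 and 0.96. The remaining V-ATPase subunits and assembly factors held 11 genes tested and 0 called. Higher at an unadjusted p under 0.05 (3.99% of all genes) was 1 of them, the regulator Wdr7 (log2 fold change 0.65). Dmxl2, its partner in pump assembly, and the V1 subunit gene Atp6v1g1 had log2 fold changes of 0.40 and -0.43. In the mean deviation of these 11 genes control 2 was the lowest library, at -0.10, and labelled knockout 1 stood at -0.06.

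Genes that sort enzymes to lysosomes included 19 tested, 0 called and 1 lower at an unadjusted p under 0.05 (2.69% of all genes). This was M6pr, a receptor for the mannose 6-phosphate tag, at 288 and 291 CPM, beside control levels of 436, 537 and 393 CPM, which gives -0.65 on the log2 scale (SE 0.239, edgeR adjusted p = 0.687). Of 25 genes of mTORC1 and its control of TFEB, edgeR called 0 and found 0 at an unadjusted p under 0.05. Rheb, the GTPase that activates mTORC1, and Tsc1, part of its inhibitor, had log2 fold changes of -0.64 and 0.44, and Tfec, another gene of the TFEB family, 1.32 with an SE of 0.618. Of 17 autophagy-linked genes regarded as targets of TFEB, edgeR called 0 and found 2 lower at an unadjusted p under 0.05 (2.69% of all genes). DESeq2 called 2, both lower (0.734% of all genes). Sqstm1, the autophagy receptor p62, was at 513 and 597 CPM, beside control levels of 1001, 1153 and 977 CPM, which gives -0.91 on the log2 scale (SE 0.25; adjusted p = 0.503 in edgeR and 0.0146 in DESeq2). Bnip3, a mitophagy receptor, had a log2 fold change of -0.99 (adjusted p = 0.392 in edgeR and 0.0394 in DESeq2), and Hif1a one of -0.72.

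Markers of other cells also differed between the libraries. Summed over 6 border macrophage markers, the level was 486 and 1701 CPM in labelled knockout 1 and 2 and 330 to 685 CPM in the controls, so that the library highest in lysosomal genes was also highest in these. Its Pf4 stood at 299 CPM and its Mrc1, which made up most of that sum, at 1200.4 CPM, while Lyve1 was at 1.19 CPM or less in every library. Of the 6 border macrophage markers, 5 had a log2 fold change above 0 (51.1% of all genes) and 1 below, from -1.02 to 2.77. Without overlap 1 was higher and 1 lower, where 9.85% of all genes were higher and 10.4% lower. Summed over 5 oligodendrocyte markers, the level was 11322 CPM in labelled knockout 1, the library lowest in lysosomal genes, 4252 CPM in labelled knockout 2 and 1178 to 9761 CPM in the controls. Summed over 6 choroid plexus markers it was 157 and 220.4 CPM against 7.48 to 26.5 CPM. DESeq2 called 6 of these higher (1.21% of all genes) and edgeR 0. Over 6 fibroblast markers the sum was 30.1 and 13.3 CPM against 33.2 to 112 CPM. Over 6 monocyte markers it was 54.5 and 23.4 CPM against 3.52 to 6.84 CPM, but only 3 of the 6 passed the filter on low counts and 1 was at 0 in all libraries. Over 6 osteoclast markers the sum was 64.8 and 78.8 CPM against 62.4 to 68.1 CPM, of which Nfatc1, a transcription factor gene also used by other cells, made up 57.3 to 68.4 CPM. Calcr was at 0 throughout, Ocstamp at 0.432 CPM or less and Ctsk at 6.05 CPM or less. The mean deviation of the 3 of these markers tested was lowest in labelled knockout 1, at -0.87, and highest in labelled knockout 2, at 0.76 on the log2 scale. Of 7 neutrophil markers 3 were at 0 throughout, and the sum was 4.76 CPM or less. Over 10 microglia markers the sum was 4008 and 6729 CPM against 7621 to 8021 CPM. The part of these cells in the lysosomal values was not tested.

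**Figure D5:**
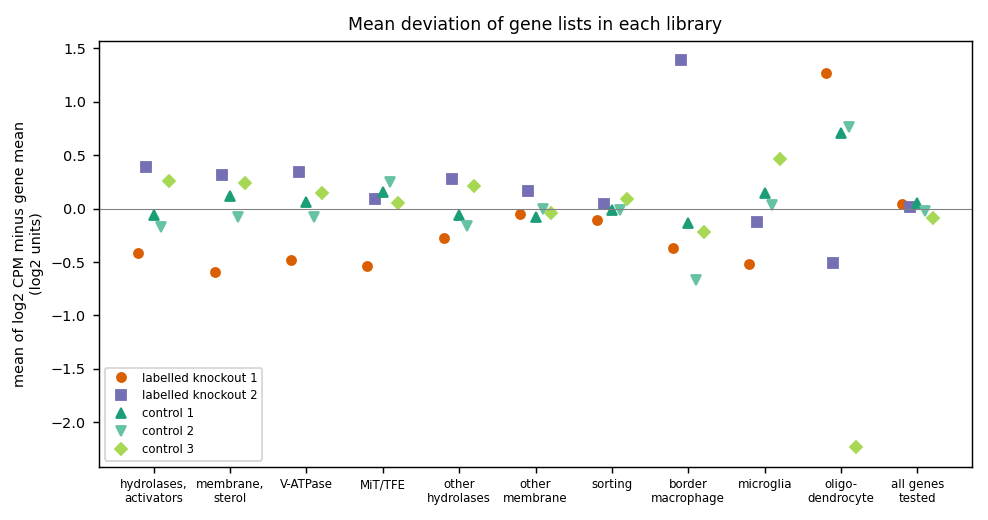
Mean over the genes of a list of log2 CPM minus the gene mean, for each library, for lysosomal roles, other lysosomal lists, markers of 3 cell types and all genes tested. Of the 7 lysosomal lists drawn, labelled knockout 1 is the lowest library in each but other membrane genes, where control 1 is lowest, and it is the highest in oligodendrocyte markers.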

How the data were processed

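RNA from primary microglia was sequenced in 2 libraries labelled knockout and 3 controls, grouped by sample title; one control's title names replicate 2 beside library 3, and 3 was used. The authors deposited whole-number read counts per gene symbol; FastQC, STAR, HTSeq and mm10 are listed, per the submitters' processing notes. For tool versions, gene annotation and strand setting nothing is given in the sources used here. Reads that fall on overlapping or copied genes can be lost in such counting. From these counts, edgeR 4.0.16 (R 4.3.3) was run on the whole table with filterByExpr, TMM factors and its robust quasi-likelihood F test, two-sided, with Benjamini-Hochberg adjustment over 12543 genes and 3 residual degrees of freedom; standard errors are the log2 fold change divided by the square root of F. DESeq2 1.42.0, limma-voom 3.58.1, other scalings and filters, a replicate block, each library left out, and ribosomal, mitochondrial and haemoglobin genes left out were alternatives. Log2 CPM used a prior count of 2. Of 21983 symbols 21924 had a median transcript length in GENCODE M21 (GRCm38), used for RPKM and for the loess length correction (span 0.3). Promoters are from RefSeq. The fit was tested on simulated data. Values in every library are given for lysosomal genes at an unadjusted p under 0.05 (none), the 8 highest in mean CPM, the 3 transcription factors, the pair of d subunits, the 10 in which the libraries labelled knockout differed most, and those whose groups did not overlap (added after values were seen); from other lists, up to 3 with the smallest p, of which one gene is not reported here. The members and lists were chosen with earlier results of these data known.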

Additional observations from a re-analysis of the deposited data

How the results depend on the processing

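The count of lysosomal genes called stayed 0 under every alternative that kept both libraries labelled knockout, including DESeq2, limma-voom and the length correction. Of all 12543 genes tested, DESeq2 called 244 and the replicate block 4. The other alternatives of this kind called 0 of all genes, so a 0 there says nothing particular to lysosomal genes. Counts at an unadjusted p under 0.05 moved only when a library labelled knockout was left out: over the 5 fits that each left out one library, the number higher ran from 0 to 4 and the number lower from 0 to 11, while 2.08% to 8.84% of all genes were higher and 1.21% to 7.9% lower. Over the same fits the median log2 fold change ran from -0.52 to 0.24 for all lysosomal genes, from -0.37 to 0.27 for V-ATPase genes, and from -0.53 to 0.29 for hydrolases and activators, the lowest values without labelled knockout 2 and the highest without labelled knockout 1. Single genes that changed sign when a library was left out ran from -0.64 to 1.23 (Psap), -1.03 to 0.23 (Grn), -0.62 to 0.68 (Lamp1), -1.73 to 0.13 (Npc2), -0.96 to 0.50 (Hexa), -0.76 to 0.44 (Man2b1), -0.19 to 0.13 (Atp6v1a), -0.52 to 0.039 (Tfe3), -0.32 to 0.40 (Atp6v0d1), -0.10 to 1.64 (Atp6v0d2), -1.25 to 2.05 (Acp5), -0.64 to 1.07 (Glb1), -1.36 to 0.27 (Atp6v0c), -1.24 to 0.35 (Atp6v1f) and -1.06 to 0.35 (Atp6v0b). Atp6v1a, at -0.0038, also turned positive with DESeq2 size factors (0.013), library totals (0.0053), at least 1 CPM in 3 libraries (0.0059), DESeq2 (0.013) and the replicate block (0.12). Whether the replicate numbers pair the libraries is not known. Deviations of same-numbered libraries from their group means correlated at 0.15 and -0.56. The deviations of the libraries labelled knockout from their own mean are mirror images, so these values cannot decide it. With the replicate block 0 lysosomal genes were called (4 of all 12543 genes tested) and their median was -0.05, with 20 positive and 28 negative. The median over hydrolases and activators was 0.05. Control 3 is alone in its block, so the fold changes of that fit rest on the same-numbered libraries 1 and 2 only. Depth was high for most of these genes, of which 36 had a mean over 100 CPM.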
